A study of Mus musculus with 25 samples.

Results

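Nr5a2, Klf14 and Negr1 are 3 of the 35880 genes counted in embryonic mouse mesenchyme, and they were chosen by the study's naming of them as genes enriched in the mesenchyme of the E13.5 salivary gland. The values of that tissue against the others therefore selected them and are given below as a description with no test. The profiled tissues were mesenchyme of the E13.5 salivary gland (E13.5 SM), E16.5 fat pad precursor (E16.5 FP), E16.5 mammary mesenchyme around the sprout (E16.5 MM), E13.5 mammary mesenchyme around the quiescent bud (E13.5 MM) and E13.5 ventral skin mesenchyme away from the mammary line (E13.5 VM). All came from untreated embryos of the strain C57Bl/6JOlaHsd. The epithelium was removed by enzyme treatment and manual dissection, so each sample is a bulk mixture of whatever cells stayed with the mesenchyme. A sample pooled 2 to 3 embryos of 1 litter, with 5 pools per tissue from 3 litters, 25 pools in all. Which pools shared a litter is not stated, so p-values measure the spread between pools. E16.5 embryos were female and the sex of E13.5 embryos was not recorded, so stage and sex cannot be told apart in comparisons across the 2 stages. The salivary gland stands at 1 stage, so tissue and stage cannot be told apart in its comparison with E16.5 FP or E16.5 MM.

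Nr5a2 encodes LRH-1, an orphan nuclear receptor that binds DNA as a monomer and is best known from liver, pancreas, gut and ovary, where it drives bile acid and steroid genes. Klf14 encodes a zinc finger transcription factor of the Krüppel-like family that binds GC- and CACCC-rich DNA. It is an imprinted gene without introns, expressed from the maternal allele and known in human fat as a regulator of other genes. Negr1 encodes a cell adhesion molecule of the IgLON family that is tethered to the membrane by a lipid anchor, and it is best known from neurons.

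In the GENCODE M21 annotation of GRCm38, Nr5a2 (ENSMUSG00000026398) lies on chromosome 1 from 136842571 to 136960448 on the minus strand and has 10 exons once those of its transcripts are merged, 5.899 kb in all. Klf14 (ENSMUSG00000073209) lies on chromosome 6 from 30956023 to 30959078 on the minus strand and is a single exon of 3.056 kb. Negr1 (ENSMUSG00000040037) spans chromosome 3 from 156561794 to 157316445 on the plus strand, with 9 merged exons that sum to 10.506 kb. Of the 31-base words in the transcripts of Nr5a2, 2.09% also occur in other genes, mostly in the pseudogene Gm18981, against 0.04% for Negr1 and 0% for Klf14. Gm18981 itself had between 3 and 32 counts per pool. The pseudogene Gm15578, which lies within Negr1 on the same strand, had between 0 and 46 counts per pool. RefSeq windows of 300 bases, 250 before and 50 after a start site, were found for 2 of the 3 genes, with 2 start sites for Nr5a2, and Klf14 is named only. They are shown because these genes share a tissue of high level, to let their start regions be compared. Capitals mark matches, searched on both strands, to 5 short motifs. The TATA box was searched as TATAAA and is held by 13.6% of 32851 such windows. The CAAT box was searched with a leading C, as CCAAT (37.4% of windows). The GC box was searched as GGGCGG (35.7% of windows). The motif bound by many Krüppel-like factors was searched as CACCC (57.5% of windows). The half-site of many nuclear receptors was searched as AGGTCA (16.3% of windows).
Nr5a2, chr1:136960399-136960698, minus strand, GRCm38.p6: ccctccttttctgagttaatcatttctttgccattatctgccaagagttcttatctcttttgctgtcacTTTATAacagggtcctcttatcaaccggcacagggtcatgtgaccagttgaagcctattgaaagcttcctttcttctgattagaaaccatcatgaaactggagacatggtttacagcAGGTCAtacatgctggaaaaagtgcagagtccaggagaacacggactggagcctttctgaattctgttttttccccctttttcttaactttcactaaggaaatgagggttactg
Nr5a2, chr1:136953581-136953880, minus strand, GRCm38.p6: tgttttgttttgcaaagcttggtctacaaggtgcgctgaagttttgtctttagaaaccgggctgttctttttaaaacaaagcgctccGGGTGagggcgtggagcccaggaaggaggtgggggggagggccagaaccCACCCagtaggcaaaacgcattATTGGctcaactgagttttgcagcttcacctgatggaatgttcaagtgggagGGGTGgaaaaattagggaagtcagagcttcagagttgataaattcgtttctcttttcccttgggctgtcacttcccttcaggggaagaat
Negr1, chr3:156561544-156561843, plus strand, GRCm38.p6: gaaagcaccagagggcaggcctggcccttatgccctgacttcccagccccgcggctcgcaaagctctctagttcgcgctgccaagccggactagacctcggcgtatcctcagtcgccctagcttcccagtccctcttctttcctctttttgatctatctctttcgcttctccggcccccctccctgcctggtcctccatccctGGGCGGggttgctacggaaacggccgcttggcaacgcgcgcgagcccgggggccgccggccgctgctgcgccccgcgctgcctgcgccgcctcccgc
The window at the upstream start site of Nr5a2 had 42% G and C with 2 CpG pairs, that at its downstream start site 49% with 7, and that of Negr1 68% with 29. The medians over all windows were 52.7% and 7 CpG pairs. The upstream Nr5a2 window held 1 nuclear receptor half-site at -64 from the start site and 1 TATA box, on the opposite strand, at -181. The downstream Nr5a2 window held 3 matches to the Krüppel-like factor motif and 1 CCAAT, and the Negr1 window held 1 GC box at -47. No 2 of these matches overlap. A match describes the letters only.

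The total counts per pool ran from 20678150 to 34448304 with a median of 26370369. A normalized count is a count brought to the mean effective library size by TMM scaling, and a mean is given with its SD over 5 pools. The tissue labels were checked against marker genes. In E13.5 SM, Barx1 and Pitx1, transcription factors of jaw and salivary mesenchyme, averaged 2530 and 4031 normalized counts. Their highest means in another tissue were 5.46 and 474.6, both in E13.5 VM. Fgf10 of the same list averaged 4871 in E13.5 SM and at most 1392 elsewhere. Foxf1, the last of the 4 genes, averaged 44.99 in E13.5 SM and came close to this in E16.5 MM, at 37.64. In each comparison of E13.5 SM, 3 of the 4 were called higher by the thresholds given below. The trunk genes Hoxc6 and Hoxa7 were at 0 counts in all 5 pools of E13.5 SM. The 6 genes of the mammary mesenchyme list summed to 592.1 to 1207 CPM (counts scaled to a common library total) in E16.5 MM and 430.7 to 535.4 in E13.5 MM, against 344.4 to 424.9 in E13.5 VM. Against E13.5 VM, 3 of the 6 were higher and 2 lower in E16.5 MM. For E13.5 MM the same counts were 4 and 1, so the list marks these tissues only in part. The 5 adipocyte genes summed to between 669.6 and 1405 CPM in E16.5 FP, against at most 189.2 CPM in any pool of the other tissues. E13.5 VM held the trunk Hox genes and had no marker of its own in these lists. Other cells were present too: 8 skeletal muscle genes summed to between 1845 and 17920 CPM in E16.5 FP, with the lowest sum in replicate 5, and to between 96.31 and 3006 CPM in the other tissues.

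Salivary gland mesenchyme had the highest level of all 3 genes, and no pool of another tissue reached the lowest salivary pool. Among the other tissues the means of Nr5a2 lay close together, Klf14 fell into separate steps, and Negr1 had its widest spread between pools in E13.5 VM. The 15 groups of 5 pools are drawn in the plot of levels by pool.

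**Figure D1:**
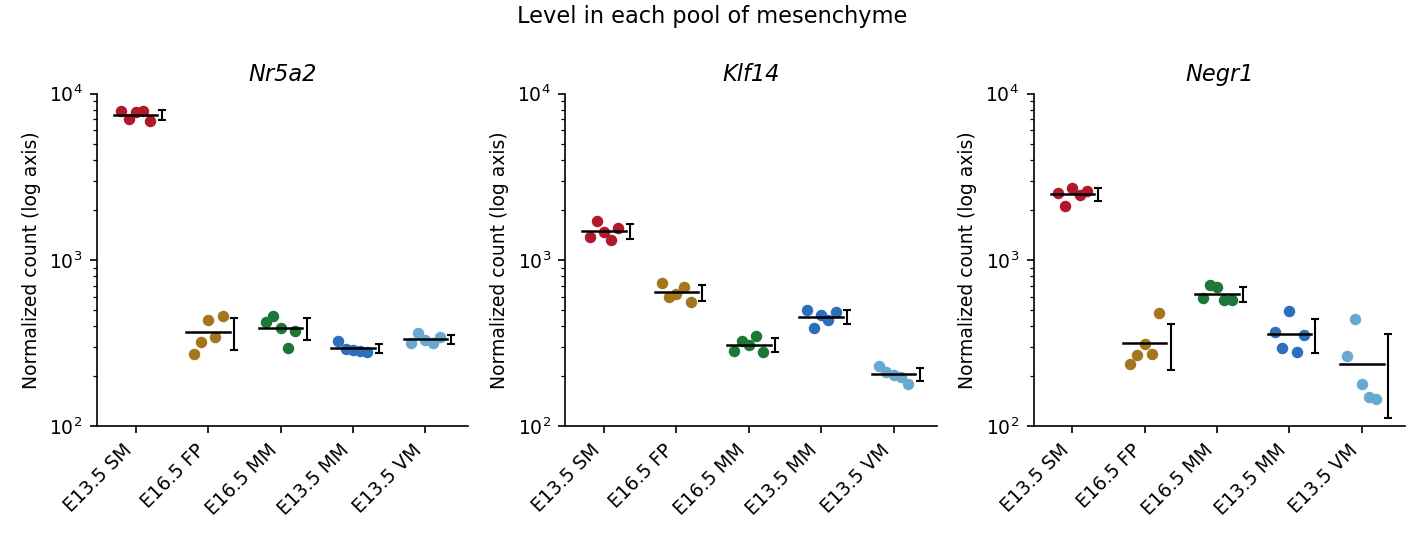
Normalized counts of Nr5a2, Klf14 and Negr1 on a log axis in each of 5 pools (points) of 5 tissues, with the mean (line) and SD (bar to the right). Every E13.5 SM pool lies above every other pool, with means of 7469, 1483 and 2474 normalized counts.

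Nr5a2 had 7855, 7056, 7738, 7873 and 6824 normalized counts in the E13.5 SM pools. It had 270.1, 322.5, 435.3, 346.3 and 463.2 in E16.5 FP, and 421.1, 459.3, 392, 297.3 and 373.9 in E16.5 MM. The E13.5 SM pools stayed within 1.15-fold of each other, and the ranges of both E16.5 tissues overlapped. In E13.5 MM the pools had 325.7, 291.9, 287.9, 284.4 and 279.3, and in E13.5 VM they had 316.5, 364.6, 332.1, 316.3 and 343.8. The pools of each of these tissues lay within 1.17-fold, close together except for the E13.5 MM pool at 325.7. The means ± SD were 7469 ± 493 in E13.5 SM, 367.5 ± 80.2 in E16.5 FP, 388.7 ± 60.5 in E16.5 MM pools, 293.9 ± 18.4 in E13.5 MM pools and 334.7 ± 20.4 in pools of E13.5 VM (SD, n = 5 each).

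Klf14 had 1380, 1706, 1466, 1317 and 1545 normalized counts in E13.5 SM. It had 721.5, 597.4, 623.4, 691.6 and 555.2 in E16.5 FP, and 283.4, 326.2, 306.7, 350.5 and 278.1 in E16.5 MM. These 3 tissues did not overlap, and E16.5 FP was next below the salivary pools. E13.5 MM had 501, 389.5, 464.6, 434.9 and 487.9, and E13.5 VM had 230.4, 211.9, 204.2, 198.9 and 178.5. All 5 tissues were thus separate for Klf14, in the order E13.5 SM, E16.5 FP, E13.5 MM, E16.5 MM and E13.5 VM. The means ± SD were 1483 ± 152 in E13.5 SM, 637.8 ± 68.1 in E16.5 FP, 309 ± 30.1 in E16.5 MM pools, 455.6 ± 44.7 in E13.5 MM pools and 204.8 ± 18.9 in pools of E13.5 VM (SD, n = 5 each).

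Negr1 had 2515, 2113, 2687, 2456 and 2599 normalized counts in E13.5 SM. It had 237.9, 266.9, 314.4, 273.7 and 480.1 in E16.5 FP, and 593.2, 708.8, 684.3, 573.7 and 573.4 in E16.5 MM. Replicate 5 of E16.5 FP stood above the rest of its tissue, and it was also the highest E16.5 FP pool for Nr5a2 and the lowest for Klf14. Many marker sums of this pool were at the edge of its tissue. Skeletal muscle, glial (59.32 CPM) and epithelial genes (6.02 CPM) had their lowest sums there. Neuron (196 CPM), leukocyte (300.2 CPM), mammary mesenchyme (190.6 CPM) and jaw and salivary genes (65.46 CPM) had their highest. The jaw and salivary sum was mostly Fgf10 in E16.5 FP. Fgf10 averaged 1392 normalized counts there, against 1.41 for Barx1, 7.79 for Pitx1 and 17.6 for Foxf1. The part of these marker sums in the levels of the 3 genes was not tested. E13.5 MM had 368.7, 294.8, 490, 279.7 and 352.7, and E13.5 VM had 263.7, 442.5, 179, 150.7 and 145.6. The highest E13.5 VM pool was 3.04-fold above the lowest, the widest spread of any of these genes in any tissue. The means ± SD were 2474 ± 220 in E13.5 SM, 314.6 ± 96.5 in E16.5 FP, 626.7 ± 64.8 in E16.5 MM pools, 357.2 ± 83.2 in E13.5 MM pools and 236.3 ± 125 in pools of E13.5 VM (SD, n = 5 each).

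Per kilobase of exon, the mean level in E13.5 SM was 1266 normalized counts for Nr5a2, 485.2 for Klf14 and 235.5 for Negr1. These levels were above those of 96.1%, 86% and 69.7% of the 17576 tested genes with an exon length, in that order. In the other 4 tissues the same level per kilobase ranged from 49.8 to 65.9 for Nr5a2, from 67 to 208.7 for Klf14 and from 22.5 to 59.7 for Negr1. Klf14 was the highest of the 3 per kilobase in each of those 4 tissues, and Nr5a2 in E13.5 SM. The raw counts behind all these values lay between 155 and 8753 per pool.

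The ratio of E13.5 SM to each other tissue was largest for Nr5a2 and smallest for Klf14 against E16.5 FP. Nr5a2 had 20.3 times the mean normalized count of E16.5 FP in E13.5 SM, 19.2 times that of E16.5 MM, 25.4 times that of E13.5 MM and 22.3 times that of E13.5 VM. On the log2 scale these were differences of 4.37 ± 0.15, 4.28 ± 0.11, 4.67 ± 0.06 and 4.48 ± 0.06 (SE over pools). For Nr5a2 the 4 ratios lay close together. The ratios of Klf14 were 2.33 to E16.5 FP, 4.80 to E16.5 MM, 3.26 to E13.5 MM and 7.24 to E13.5 VM, with log2 differences of 1.22 ± 0.09, 2.26 ± 0.09, 1.70 ± 0.09 and 2.86 ± 0.09. Klf14 thus came nearest to its salivary level in the fat pad precursor. The ratios of Negr1 were 7.86 to E16.5 FP, 3.95 to E16.5 MM, 6.93 to E13.5 MM and 10.5 to E13.5 VM, with log2 differences of 3.02 ± 0.19, 1.98 ± 0.09, 2.82 ± 0.15 and 3.52 ± 0.31. Negr1 came nearest to its salivary level in E16.5 mammary mesenchyme.

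**Figure D2:**
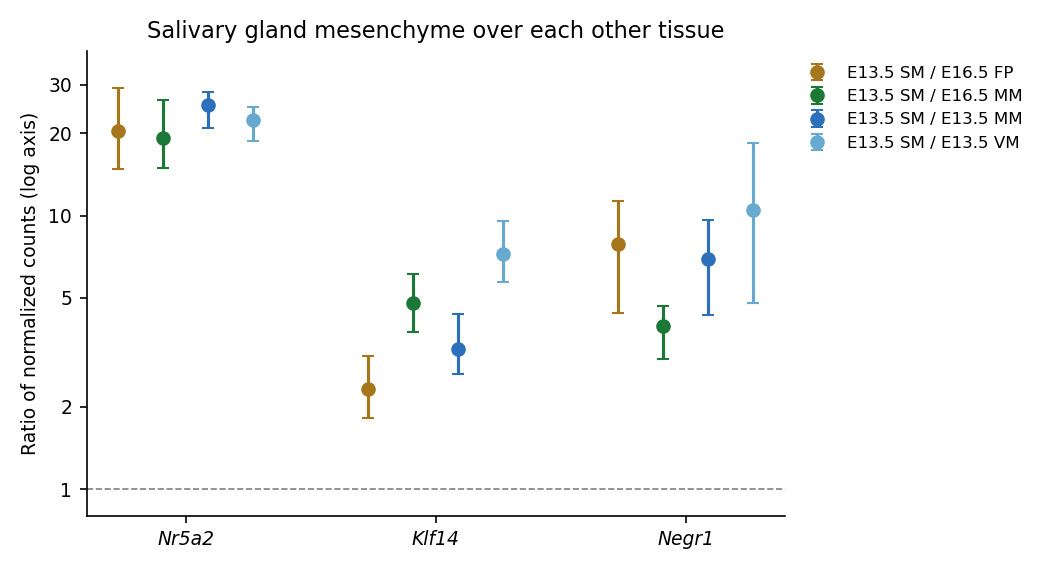
Ratio of mean normalized counts, E13.5 SM over each other tissue, on a log axis, where each bar runs from the lowest salivary pool over the highest other pool to the highest over the lowest. The lowest of all 12 bars starts at 1.83, for Klf14 against E16.5 FP, and Nr5a2 is at 19.2 or more against every tissue.

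All 12 ratios had no overlap between pools, which the choice of the genes fixes in part. For scale, over all 17657 tested genes 39.5% were called between E13.5 SM and E16.5 FP, 35.1% between E13.5 SM and E16.5 MM, 30.1% between E13.5 SM and E13.5 MM and 30.2% between E13.5 SM and E13.5 VM. A gene was called where edgeR's quasi-likelihood test gave an adjusted p under 0.05, the log2 fold change reached 0.58 in either direction and the tissue with more of it averaged over 50 normalized counts. Of 12232 genes with a mean of at least 100 in E13.5 SM, 601 or 4.91% were at least 2-fold above all other tissues. Ranked by the lowest of the 4 ratios, Nr5a2 was number 33, Negr1 number 217 and Klf14 number 464 of the 12232. In bulk samples, fewer cells of a type and less RNA per cell cannot be told apart.

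Genes of peripheral neurons moved with the same tissue. The 15 neuron genes of the marker list summed to between 519.5 and 651.3 CPM in E13.5 SM, against 102.4 to 196 CPM in E16.5 FP, 128.5 to 162.3 in E16.5 MM, 166.9 to 185.6 in E13.5 MM and 115.4 to 151.7 in E13.5 VM. Elavl3, an RNA-binding protein of neurons, averaged 510.4 normalized counts in E13.5 SM and at most 10.2 in any other tissue. Vip, a neuropeptide of parasympathetic neurons, averaged 799.8 and at most 5.31. Of the 15 genes, 13 were at least 2-fold higher in E13.5 SM than in every other tissue, and Gap43 and Isl1 were not. Within E13.5 SM the neuron sums were 606.6, 617.8, 573.4, 519.5 and 651.3 CPM in replicates 1 to 5. Nr5a2 had its highest salivary values, 7873 and 7855, in replicates 4 and 1, with neuron sums of 519.5 and 606.6 CPM. Its lowest value of 6824 was in replicate 5, where the neuron sum was highest. Klf14 had its lowest value of 1317 in replicate 4 and its highest values of 1706 and 1545 in replicates 2 and 5. Negr1 was lowest in replicate 2 and highest in replicate 3. With 5 pools these orders are a description only. Glial genes summed to 90.3 to 122.4 CPM in E13.5 SM and to 59.32 to 133.5 CPM over the pools of the other tissues. Epithelial genes summed to 19.03 to 27.05 CPM in E13.5 SM, against 6.02 to 45.31 CPM in E16.5 FP and 14.36 to 107.3 CPM in E16.5 MM. E13.5 MM, with 4.13 to 15 CPM, and E13.5 VM, with 2.94 to 5.15 CPM, lay below every salivary pool in this sum. Epcam made up most of the salivary sum, at a mean of 456.7 normalized counts, against 53.6 in E13.5 MM. Trp63, Krt18 and Krt15 also had higher salivary means, at 81.97, 27.49 and 11.34, against 40.03, 20.77 and 10.95 in E13.5 MM. The means of Cdh1, Krt5, Krt8 and Krt14 went the other way, at 7.79, 0.558, 15.1 and 2.99 against 15.9, 15.6, 28.3 and 40.6. Of the 8 epithelial genes, 2 were called higher in E13.5 SM against E13.5 MM and 0 the other way. Cartilage genes summed to 17.7 to 36.18 CPM in E13.5 SM, 24.18 to 66.61 in E16.5 FP, 16.86 to 23.13 in E16.5 MM, 4.02 to 6.01 in E13.5 MM and 2.49 to 8.96 in pools of E13.5 VM. Of these, Acan averaged 525.5 normalized counts in E13.5 SM and at most 95.25 in another tissue. The part of neurons, epithelium and cartilage in the levels of the 3 genes was not tested.

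The comparisons without salivary tissue were not used to choose the genes and were tested across all 17657 genes. They ask how the mammary tissues differ from each other and from ventral skin. Klf14 was called in 4 of these 6 comparisons, Negr1 in 3 and Nr5a2 in none. The share of all tested genes called was 14.1% for E16.5 FP vs E16.5 MM, 25.5% for E16.5 FP vs E13.5 MM, 27.4% for E16.5 FP vs E13.5 VM, 19.8% for E16.5 MM vs E13.5 MM, 23.3% for E16.5 MM vs E13.5 VM and 6.45% for E13.5 MM vs E13.5 VM. With 3 genes, these counts are a description and not a share to be set against it.

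Klf14 was higher in E16.5 FP than E13.5 VM, with a log2 fold change of 1.64 ± 0.10 (SE) and an adjusted p of 1.48e-13 in edgeR's quasi-likelihood test. It was higher in E16.5 FP than E16.5 MM by 1.05 ± 0.09 on the log2 scale (adjusted p = 2.68e-09) and in E13.5 MM than E13.5 VM by 1.15 ± 0.10 (adjusted p = 1.99e-09). In each of these 3 comparisons all 5 pools of the first tissue were above all 5 of the second. The smallest called difference was E16.5 MM vs E13.5 VM, at 0.59 ± 0.10 (adjusted p = 1.08e-05), and it missed the fold threshold at 0.57 without E13.5 VM replicate 5 and at 0.575 without E16.5 MM replicate 4. Between E16.5 MM and E13.5 MM the log2 fold change was -0.56 ± 0.09 (adjusted p = 2.46e-05), just under that threshold, and it passed at -0.605 without E13.5 MM replicate 2 and at -0.587 without E16.5 MM replicate 4. Between E16.5 FP and E13.5 MM it was 0.49 ± 0.09 (adjusted p = 8.20e-05), also under the threshold although no pools overlapped. Klf14 was therefore lower in mammary mesenchyme at E16.5 than at E13.5 in every pool, with a size at the edge of what a call needs.

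Negr1 was higher in E16.5 MM than E13.5 VM, by 1.41 ± 0.24 on the log2 scale (adjusted p = 3.27e-05), and than E13.5 MM, by 0.81 ± 0.24 (adjusted p = 0.00689). It was lower in E16.5 FP than E16.5 MM, at -0.99 ± 0.24 (adjusted p = 0.00213). None of these 3 pairs of tissues overlapped, so E16.5 mammary mesenchyme stood above the other non-salivary tissues in every pool. Between E13.5 MM and E13.5 VM the log2 fold change was 0.60 ± 0.24 with an adjusted p of 0.0996 and a 95% interval from 0.10 to 1.10. Without E13.5 VM replicate 2, the pool at 442.5, it was 0.95 with an adjusted p of 0.00114 and passed all thresholds. The same pool decided E16.5 FP vs E13.5 VM, at 0.42 ± 0.24 (adjusted p = 0.149) with it and 0.77 (adjusted p = 0.00182) without it. In that pool the neuron sum of 135.3 CPM and the skeletal muscle sum of 298.4 CPM were within the range of the other E13.5 VM pools. Its cartilage sum of 8.96 CPM was above theirs of 2.49 to 3.86 CPM, and its sums of jaw and salivary genes, at 29.04 CPM, and of adipocyte genes, at 15.69 CPM, were the highest of its tissue. The jaw and salivary sum was mostly Pitx1 in E13.5 VM, at a mean of 474.6 normalized counts. Fgf10, Foxf1 and Barx1 averaged 89.3, 14.6 and 5.46 there. The part of these marker sums in the Negr1 value was not tested. Between E16.5 FP and E13.5 MM the log2 fold change was -0.18 ± 0.24 (adjusted p = 0.543), with an interval from -0.68 to 0.31.

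Nr5a2 differed little among the 4 tissues. The largest log2 fold change was 0.40 ± 0.11 for E16.5 MM vs E13.5 MM (adjusted p = 0.00512), with a 95% interval from 0.17 to 0.64. E16.5 FP vs E13.5 MM gave 0.32 ± 0.11 (adjusted p = 0.0207), and its adjusted p was 0.0685 without E16.5 FP replicate 3 and 0.08995 without replicate 5. Both comparisons passed the p threshold over all pools and stayed under the fold threshold. The other 4 comparisons had adjusted p-values between 0.114 and 0.653 and log2 fold changes between -0.19 and 0.22. Their intervals ran from -0.42 at the lowest to 0.45 at the highest, all within the 0.58 that a call needs.

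**Figure D3:**
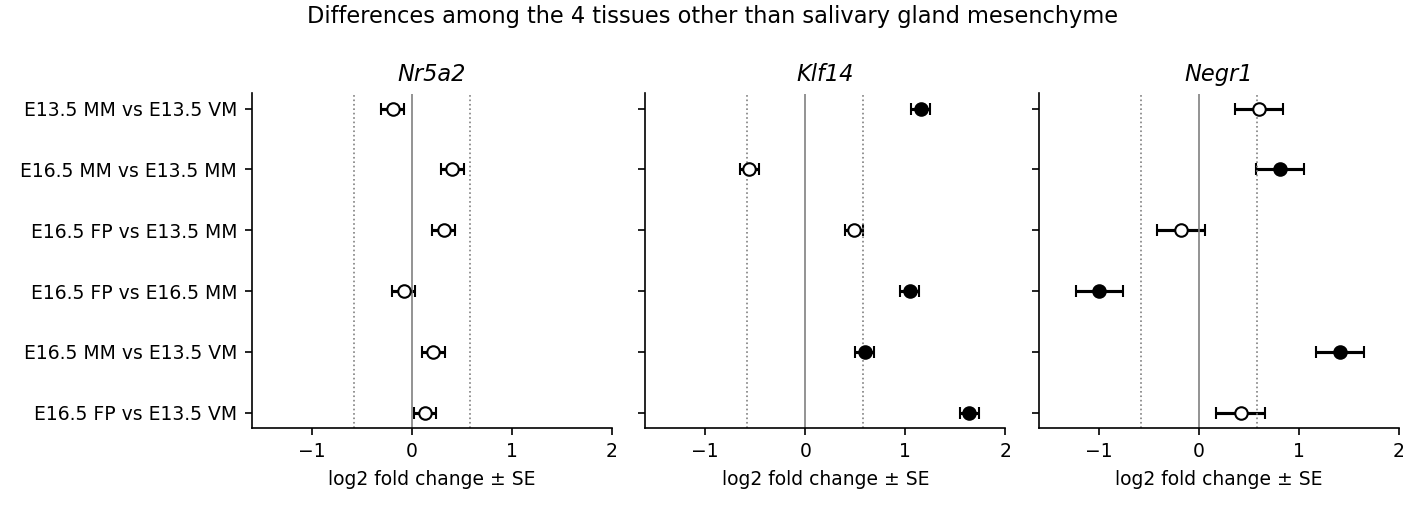
Log2 fold change ± SE (quasi-likelihood fit of edgeR, 5 pools per tissue) in the 6 comparisons without E13.5 SM, first tissue over second, with called differences filled and the 0.58 threshold dotted. Klf14 has 4 filled points, Negr1 3 and Nr5a2 none, its largest value being 0.40.

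In the order of their levels, Nr5a2 ran E13.5 SM, E16.5 MM, E16.5 FP, E13.5 VM and E13.5 MM, and below E13.5 SM no step between neighbours passed the test. Negr1 ran E13.5 SM, E16.5 MM, E13.5 MM, E16.5 FP and E13.5 VM, and below E16.5 MM no step between neighbours passed. Over all 25 pools the log2 CPM of Nr5a2 correlated with that of Negr1 at r = 0.90 and with that of Klf14 at 0.81, and Klf14 with Negr1 at 0.76. Over the 20 pools without E13.5 SM the same r were 0.45, -0.11 and 0.15. These describe pools that share tissue, stage and dissection, and all 3 were lower without the salivary pools.

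For each gene, the 5 genes with the most similar tissue profile were found by the root mean square (RMS) difference of mean-centred log2 CPM over the 5 tissue means, among 13648 other genes with a mean of at least 100 normalized counts in their highest tissue. Nearest to Nr5a2 were Dgkk, a diacylglycerol kinase, at an RMS of 0.07, and Chga, the granule protein chromogranin A of neuroendocrine cells, at 0.11. Eml5, a microtubule-associated protein, Atcay, a protein of neurons, and Sgpp2, a sphingosine-1-phosphate phosphatase, followed at 0.13, 0.22 and 0.24. Dgkk averaged 645.6 ± 208 normalized counts in E13.5 SM, where its pools ran from 297.2 to 816.3, and 21.7 to 31.7 elsewhere. The salivary pools of Dgkk were thus far less even than those of Nr5a2. All but Eml5 passed the minimum mean of 100 only through E13.5 SM, and Chga and Atcay averaged between 4.75 and 7.26 in the other tissues, so no r without E13.5 SM is given for this group.

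Nearest to Klf14 were Kcnh2, a potassium channel, at an RMS of 0.14, Grin2a, a glutamate receptor subunit, at 0.20, and Eda2r, a receptor for ectodysplasin A2, at 0.21. Plagl1, an imprinted zinc finger gene, and Nexmif, a gene known from neurite outgrowth, followed at 0.23 and 0.24. Plagl1 averaged 69050 normalized counts in E13.5 SM, 28980 in E16.5 FP, 21590 in E16.5 MM pools, 22770 in E13.5 MM pools and 11170 in pools of E13.5 VM. The r of these 5 genes with Klf14 stayed between 0.62 and 0.87 over the 20 pools without E13.5 SM. They were picked for matching its profile over all tissues, so this range follows in part from the choice. Grin2a passed the minimum mean only through E13.5 SM. Nearest to Negr1 were Mapk4, an atypical MAP kinase, at 0.17, Bmp7, a secreted growth factor, at 0.21, Nacad at 0.23, Ptchd1, a membrane protein of the patched type, at 0.24, and Gpm6b, a membrane proteolipid of neurons and glia, at 0.25. Bmp7 averaged 2107 normalized counts in E13.5 SM, 266.4 in E16.5 FP, 408.6 in E16.5 MM pools, 349.9 in E13.5 MM pools and 187.8 in pools of E13.5 VM. The r of the 5 genes near Negr1 with it lay between 0.62 and 0.79 without E13.5 SM, which also follows in part from the choice. Mapk4, Nacad and Ptchd1 passed the minimum mean only through E13.5 SM and averaged at most 56.2 normalized counts in another tissue. Both ranges are thus a description and no test of likeness.

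**Figure D4:**
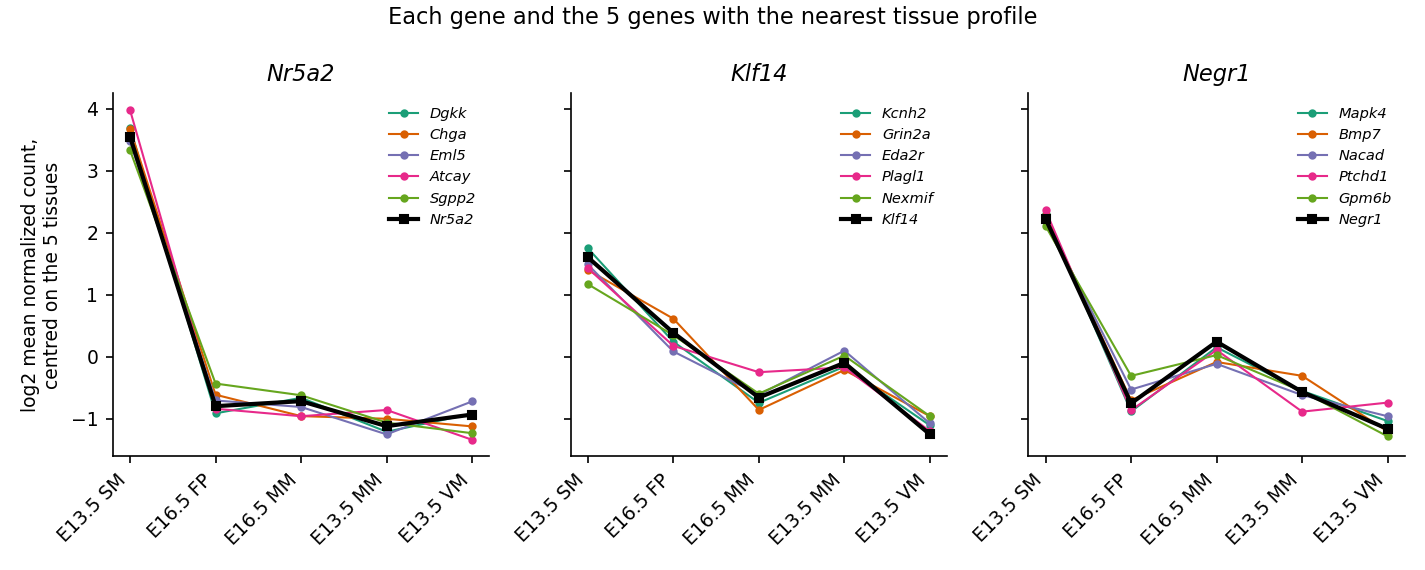
Log2 of the mean normalized count, centred on the 5 tissues, for each of the 3 genes (black) and the 5 genes nearest to it in tissue profile (colours). All genes are highest in E13.5 SM, the 5 near Klf14 are higher in E13.5 MM than E16.5 MM, and the 5 near Negr1 are highest in E16.5 MM among the other tissues.

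Klf14 lies in an imprinted region of chromosome 6 with Mest, a gene expressed from the paternal allele, whose facing end is 207.6 kb away (30723547 to 30748465, plus strand). By the correlation of log2 CPM, a measure other than the RMS above, Mest was the gene nearest to Klf14 of all 13648. Its r was 0.971 over 25 pools and 0.971 over the 20 without E13.5 SM. By RMS it lay further from Klf14, at 0.53, than the 5 nearest genes at 0.14 to 0.24. The highest r over 25 pools was that of Tlx2 for Nr5a2, at 0.989, and of Adamts1 for Negr1, at 0.956. Over these pools 351 genes had an r over 0.9 with Nr5a2, 94 with Negr1 and 56 with Klf14. The high salivary level that chose the 3 genes enters every r over 25 pools, so these values follow in part from the choice. Without E13.5 SM the highest r was that of Trim56 for Nr5a2, at 0.82, and of Slc27a6 for Negr1, at 0.894. In the 20 pools 11 genes reached an r over 0.9 with Klf14, and Angpt1 came second at 0.968, while none did so with Nr5a2 or Negr1. Mest averaged 61820 ± 3354 normalized counts in E13.5 SM, 48030 ± 2166 in E16.5 FP, 31560 ± 902 in E16.5 MM pools, 40990 ± 2805 in E13.5 MM pools and 25080 ± 801 in pools of E13.5 VM, the same order of tissues as Klf14. The range was narrower: the log2 fold change of E13.5 SM vs E13.5 VM was 1.30 ± 0.06 for Mest (adjusted p = 1.16e-15), beside a log2 difference of 2.86 for Klf14. Mest and Klf14 were called in the same direction in E16.5 FP vs E16.5 MM, E16.5 FP vs E13.5 VM and E13.5 MM vs E13.5 VM, at 0.61, 0.94 and 0.71 for Mest. Mest overlaps Copg2 on the other strand at its end, and whether strand was used in counting is not stated. Copg2 averaged 1304 ± 77.4 normalized counts in E13.5 SM and between 1096 and 1329 in the other tissues and was called in none of the 10 comparisons.

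Of 9 genes listed for this region besides Klf14, 8 were tested and Tsga13 was under the expression filter. In comparisons of E13.5 SM, 2 of the 8 were called against E16.5 FP, 3 against E16.5 MM, 4 against E13.5 MM and 3 against E13.5 VM, with the backgrounds given above. Mest was higher in 3 of them. Cpa4 was lower in 3 and Cep41, a centrosome gene, in 3. Within 500 kb of Nr5a2, 4 of 9 counted genes were tested. Kif14, a kinesin of cell division, was lower in E13.5 SM in all 4 comparisons, with log2 fold changes between -1.22 and -0.70, and Zfp281 was higher against both E16.5 tissues at 0.87. Within 500 kb of Negr1, 2 of 6 counted genes were tested. Ptger3, a prostaglandin E2 receptor, averaged 586.3 ± 68.4 normalized counts in E13.5 SM, 656.9 ± 184 in E16.5 FP, 538.9 ± 90.2 in E16.5 MM pools, 87.8 ± 24.6 in E13.5 MM pools and 70.7 ± 23.7 in pools of E13.5 VM, and Zranb2 was called in none of the 4.

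Of the 16 other Krüppel-like factors, 15 were tested and Klf17 was under the filter. Against E16.5 FP 5 were higher in E13.5 SM and 6 lower, beside 19.3% and 20.2% of all tested genes. Against E16.5 MM the counts were 5 and 5, beside 16.6% and 18.5%. Against E13.5 MM they were 7 and 2, beside 15.6% and 14.5%, and against E13.5 VM 8 and 3, beside 15.6% and 14.7%. The median log2 fold changes over the list were -0.45, -0.35, 0.57 and 0.77 in that order of tissues, beside -0.035, 0.007, -0.032 and -0.037 over all genes. Klf7, known from neurons, averaged 3211 ± 373 normalized counts in E13.5 SM, 1238 ± 183 in E16.5 FP, 1087 ± 118 in E16.5 MM pools, 980.8 ± 137 in E13.5 MM pools and 764.2 ± 68.8 in pools of E13.5 VM. Klf7, Klf12 and Klf1, an erythroid factor, were called higher in E13.5 SM in all 4 comparisons. Klf10 was lower in 3 of the 4, at -1.73, -1.53 and -0.91, and -0.51 against E13.5 VM. Klf2, known from endothelium, was lower in E13.5 SM than in both E16.5 tissues, at -1.69 and -1.26, and higher than in the other E13.5 tissues, at 0.59 and 0.94. Klf4, known from epithelium, was lower against E16.5 FP at -0.64, had -0.42 against E16.5 MM without a call, and was higher against E13.5 MM and E13.5 VM at 1.38 and 1.42. Of 4 genes reported as targets of KLF14 elsewhere, 3 were tested. Tgfbr2, a TGF-beta receptor, was lower in E13.5 SM in 3 comparisons, at -0.69 to -0.59, and Plk4, a centriole kinase, in 3, at -0.82 to -0.71. Sphk1, a sphingosine kinase, was higher against E13.5 MM (0.95 ± 0.20, adjusted p = 0.000179) and E13.5 VM (0.96 ± 0.20, adjusted p = 0.000163).

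The other IgLON genes did not share the pattern of Negr1. Lsamp averaged 266.9 ± 47.9 normalized counts in E13.5 SM, 493.1 ± 247 in E16.5 FP, 1284 ± 113 in E16.5 MM pools, 1433 ± 143 in E13.5 MM pools and 2576 ± 240 in pools of E13.5 VM. It was lower in E13.5 SM in all 4 comparisons, with log2 fold changes from -3.27 ± 0.22 against E13.5 VM (adjusted p = 4.62e-12) to -0.89 ± 0.21 against E16.5 FP (adjusted p = 0.000543). Opcml was lower against E16.5 FP, E16.5 MM and E13.5 MM, at -1.67, -2.47 and -1.51. Ntm was higher only against both E16.5 tissues, at 0.58 and 0.60, and Iglon5 likewise at 2.79 and 1.19, of the 4 comparisons. Adam10, a protease reported to shed NEGR1 from the membrane, averaged 4478 ± 806 in E13.5 SM and between 2122 and 2830 in the other tissues, and was higher in all 4 comparisons, at 0.66 to 1.08. Of the 7 genes of this list, 5 were called against E16.5 FP (39.5% of all genes), 6 against E16.5 MM (35.1%), 3 against E13.5 MM (30.1%) and 2 against E13.5 VM (30.2%), the last being near the share of all genes.

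**Figure D5:**
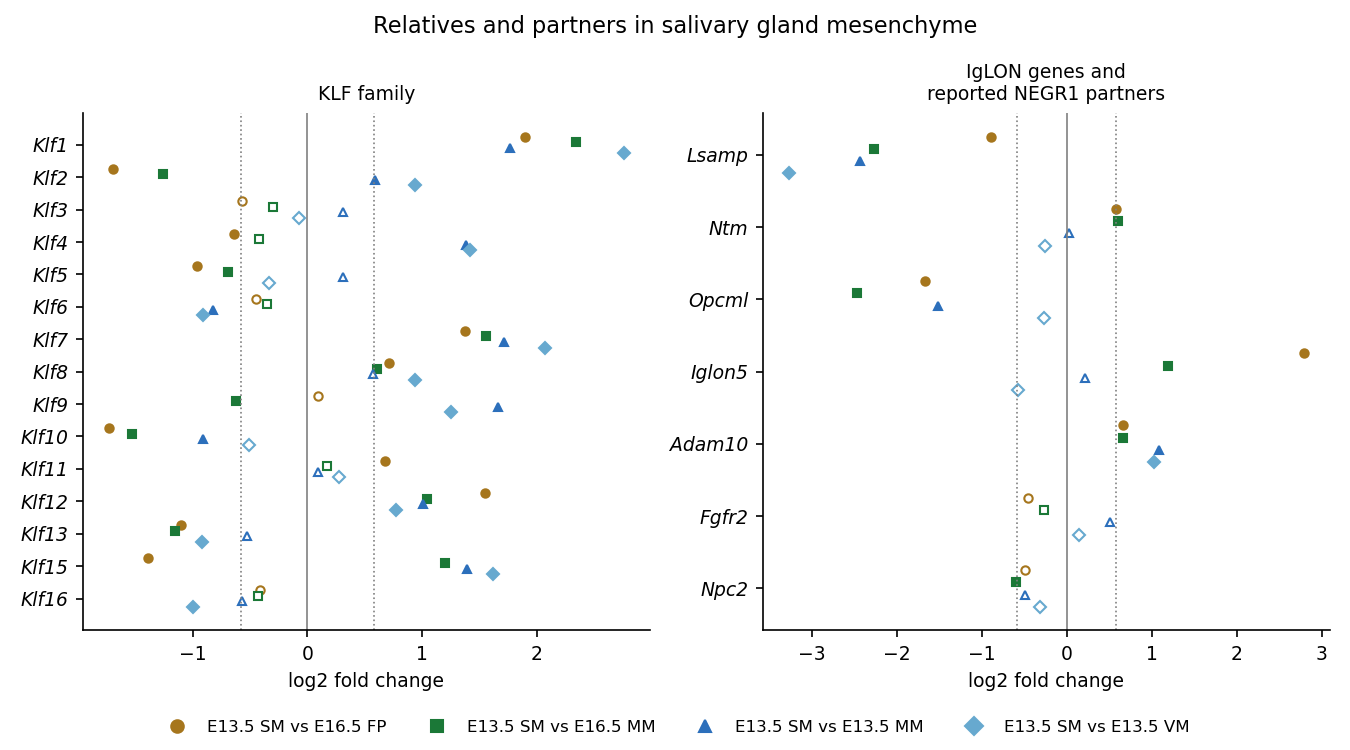
Log2 fold change of E13.5 SM over each other tissue for the tested Krüppel-like factors besides Klf14 (left, 15 genes) and for IgLON genes and reported partners of NEGR1 (right, 7 genes), with called differences filled and the 0.58 threshold dotted. Klf7 lies between 1.37 and 2.07, and Lsamp between -3.27 and -0.89.

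Around Nr5a2, its only close relative Nr5a1 had 7 counts in total in the 5 E13.5 SM pools and at most 38 in another tissue, and the corepressors Nr0b1 and Nr0b2 had at most 11 counts in total in any tissue. All of them were under the expression filter. Ncoa3, a coactivator of nuclear receptors, averaged 3263 ± 353 normalized counts in E13.5 SM and between 1251 and 1753 elsewhere, and was higher in all 4 comparisons at 0.90 to 1.38. Ncoa1 was lower than in both E13.5 tissues, at -0.84 and -0.98. Of the 8 tested genes of this list, 4 were called against E16.5 FP (39.5% of all genes), 2 against E16.5 MM (35.1%), 3 against E13.5 MM (30.1%) and 4 against E13.5 VM (30.2%), with no list count far from the share of all genes.

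Among 14 genes known as targets of NR5A receptors in other tissues, 9 were tested. Of these, 5 were called against E16.5 FP (39.5% of all genes), 4 against E16.5 MM (35.1%), 5 against E13.5 MM (30.1%) and 4 against E13.5 VM (30.2%). They did not move in 1 direction. Star, the cholesterol carrier of steroid synthesis, averaged 111.3 ± 30.6 normalized counts in E13.5 SM and between 24.6 and 30.2 in the other tissues, and was higher in all 4 comparisons at 1.88 to 2.17. Cyp11a1, the first enzyme of steroid synthesis, had 12.3 ± 3.25 in E13.5 SM, against 820.6 ± 302 in E16.5 FP, 742.3 ± 88.0 in E16.5 MM pools, 58.4 ± 14.9 in E13.5 MM pools and 56.1 ± 6.65 in pools of E13.5 VM. Scarb1, an HDL receptor, and Ccnd1, cyclin D1, were also lower in E13.5 SM in all 4 comparisons, at -1.56 to -1.25 and -2.08 to -0.78. Cyp7a1, the rate-limiting enzyme of bile acid synthesis, averaged at most 8.87 normalized counts in every tissue and could not be called.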

How the data were processed

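RNA-Seq counts of 25 pools from 5 tissues were analysed. The authors trimmed reads with Trimmomatic 0.39, checked them with FastQC 0.11.8 and MultiQC 1.9, removed ribosomal reads with SortMeRNA and estimated counts per gene with Salmon 0.99.0 on mm10. The estimated counts are whole numbers as deposited. The annotation release and the use of strand are not given in the sources used here. Reads of near copies and overlapping genes are shared out by estimation, which leaves those counts uncertain.

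The 3 genes and all lists were chosen with earlier results of these data known. Groups came from the sample labels, which name no sequencing batch. Counts were fitted with edgeR 4.0.16 in R 4.3.3 (TMM, filterByExpr, robust quasi-likelihood test, 1 mean per tissue, 20 residual degrees of freedom, common dispersion 0.0433), and p-values were adjusted by the Benjamini-Hochberg method over 17657 genes. Standard errors were taken from each log2 fold change and the root of its F statistic. Log2 CPM used a prior count of 2. Genes named besides the 3 were the 5 nearest in profile to each, members of the lists, and genes within 500 kb. Alternatives were DESeq2 1.42.0, its size factors, no filter, fits of 2 tissues, a replicate block, each pool left out and, chosen after seeing the data, a fit of the 4 other tissues. Symbols and coordinates came from GENCODE M21, which named 35505 of 35880 genes, and start sites from RefSeq. Same-numbered pools did not pair: no comparison had more than 2 of 5 correlations over 0.1. Python 3.11.15 and matplotlib 3.10.9 drew the plots.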

Additional observations from a re-analysis of the deposited data

Results flagged for a closer look

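Nr5a2 in E13.5 MM replicate 1, at 325.7 normalized counts, stood apart from the other 4 pools of its tissue, which lay between 279.3 and 291.9. The gap was 0.728 of the range of the 5 pools, just past the critical value of 0.71. Of the 15 groups of 5 pools examined this was the only one with such a gap, and chance gives about 1 in 20.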

How the results depend on the processing

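Of 288 recomputed log2 fold changes of the 3 genes, 279 kept their direction and their side of the call. With no filter on low counts, Klf14 passed the fold threshold in E16.5 MM vs E13.5 MM at -0.603 and missed it in E16.5 MM vs E13.5 VM at 0.571. With each pool left out in turn, Klf14 ranged from -0.605 to -0.518 in E16.5 MM vs E13.5 MM and from 0.57 to 0.661 in E16.5 MM vs E13.5 VM. Negr1 ranged from 0.461 to 0.953 in E13.5 MM vs E13.5 VM and from 0.236 to 0.769 in E16.5 FP vs E13.5 VM, each highest without E13.5 VM replicate 2. Nr5a2 in E16.5 FP vs E16.5 MM ranged from -0.187 to 0.009 and changed sign without E16.5 FP replicate 1, at 0.009. The replicate block changed none of the 18 calls, and for Negr1 in E13.5 MM vs E13.5 VM it gave 0.62 with an adjusted p of 0.113. No comparison had every pool correlate best with its own number. DESeq2, its size factors, fits of only 2 tissues and the fit of the 4 other tissues also changed none. All 144 recomputed ratios moved by less than 1 SD, and all 40 counts over all genes stayed within 1.5 times. By Pearson r, 1 of the 5 nearest genes was shared for each of the 3 genes. Of 216 recomputed list counts 8 moved by more than 1.5 times, 7 of them with no filter. Depth did not limit the 3 genes, whose lowest raw count was 155.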
